A study of Pyrus pyrifolia with 6 samples.

Results

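The regions described here are stretches of pear chromosomes in which CHG methylation was higher in the skin of bagged fruit and which share no base with a called difference in CG or CHH methylation (H is A, C or T). They were taken from the authors' table of differentially methylated regions by 4 conditions: a place on one of the 17 chromosomes, the CHG context, a bagged mean above the unbagged mean, and no bp in common with any CG or CHH region of the table. Of the 53954 regions in the table, 629 met all of these and are called CHG-only gains below. They make up 70.04% of the 898 CHG gains on chromosomes. The other 269 shared at least 1 bp with a CG region (112), a CHH region (118) or both (39). Of the 889 CHG losses on chromosomes, a larger share, 79.98%, overlapped no CG or CHH region. The members were thus chosen by the measured difference between the groups' CHG levels, so that difference is given as a description and was not tested.

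Skin was taken from fruit of the pear Pyrus pyrifolia 'Cuiguan', a cultivar whose surface turns brown and corky in parts. In the bagged group (3 samples) the fruit was enclosed in single-layer white paper bags at 20 days and in double-layer yellow-white bags at 40 days after full bloom. In the unbagged group (3 samples) the fruit stayed uncovered. All fruit came from trees of the same age, 7 years, in one orchard, and was sampled at 115 days after full bloom. The methylomes were read by whole-genome bisulfite sequencing, in which unmethylated cytosines are read as thymine. The series asks how bagging and the semi-russet skin of this cultivar relate to DNA methylation.

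The deposited table gives 1 mean methylation level per group and region, so the spread between replicates and the read depth behind each level are unknown. No test across the samples was possible, and the comparisons are between regions of one table. Regions lie on shared molecules and libraries and are not replicates of the treatment, so intervals on shares cover counting error only. Genes, repeats and base sequences at the regions were not analysed here, and positions are given as the authors' table lists them.

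As background, plants methylate cytosines in 3 contexts through separate enzymes. In Arabidopsis, CG methylation is copied after replication by MET1, whereas CHG methylation is kept by the chromomethylase CMT3, which binds histone H3 carrying the heterochromatic lysine 9 methyl mark. The mark is in turn placed by SUVH enzymes that bind methylated DNA, so that both marks maintain each other over transposons and other silent sequence. CHH methylation is set anew by DRM2, guided by small RNAs, or by CMT2, and glycosylases of the ROS1 and DME family remove methylation in all contexts. A called change in CHG context alone is therefore of interest as a place where the contexts were not called together, although a CG or CHH difference too small for the caller leaves no entry in the table.

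CHG-only gains were short, and their unbagged levels were mostly low or intermediate rather than zero. In unbagged skin their levels ran from 1.32% to 82.8%, with a median of 30.7% (quartiles 15.01 and 45.5). In bagged skin they ran from 7.49% to 92.4%, with a median of 58.3% (40.95 and 74.0). The median difference was 22.4 percentage points (17.9 and 29.6), and the median ratio of the bagged to the unbagged level was 1.86. Their length was 92 bp in the median (66 and 125), up to 464 bp, and they held a median of 10 CHG cytosines (7 and 14). Together they covered 66.5 kb and 7205 cytosines.

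By starting level, 102 regions (16.2%) lay under 10% in unbagged skin, 206 from 10 to 30%, 190 from 30 to 50%, 108 from 50 to 70% and 23 at 70% or more. The end point moved with the start. The regions under 10% reached a median of only 22.6% in bagged skin, a ratio of 4.28, and 77 of the 102 stayed under 30%. Those from 10 to 30% went from a median of 19.1% to 46.5%, and those from 30 to 50% from 39.4% to 65.6%. Regions from 50 to 70% went from 57.7% to 80.3%, and the 23 highest from 75.1% to 87.8%, a median difference of 12.7 points. The difference was thus largest in the middle of the scale, with medians of 25.003 and 24.5 points in the classes from 10 to 30% and from 30 to 50%. It was 16.6 points in the lowest class. All members were chosen as gains, and full methylation limits how large the difference can be in the highest classes. The part of the scale and of the selection in this pattern was not tested. Of all CHG-only gains, 260 (41.3%) were under 50% in unbagged and at 50% or more in bagged skin. Levels under 10% unbagged and of at least 50% bagged were seen in 6 regions, which had a median of 4 cytosines each.

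**Figure D1:**
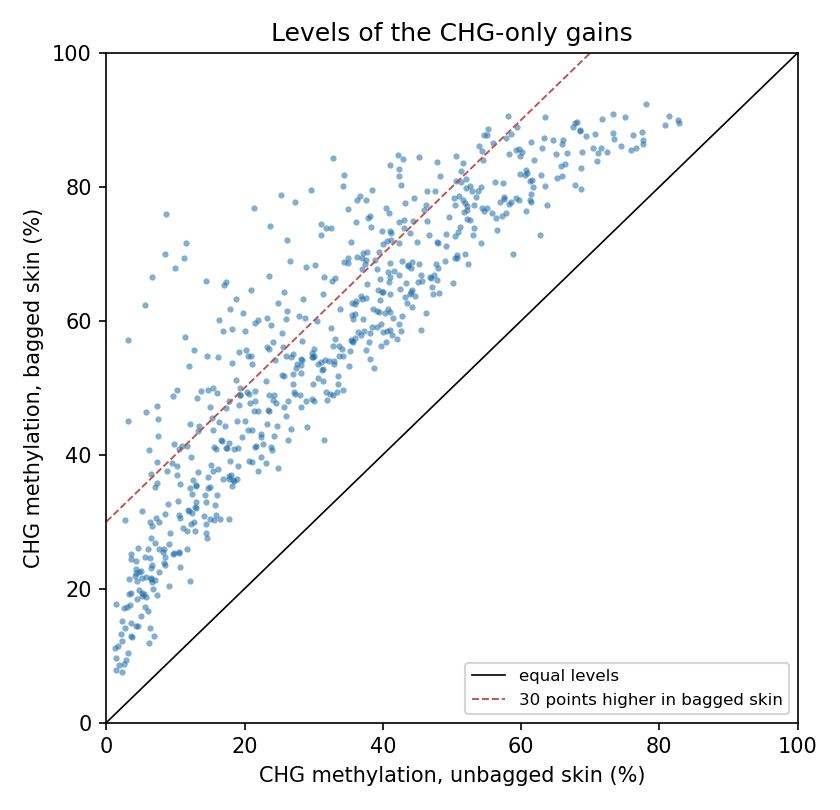
CHG methylation of each of the 629 CHG-only gains in unbagged (x axis, %) and bagged skin (y axis, %), 1 point per region from the authors' group means; the solid line marks equal levels and the dashed line a difference of 30 points. Points narrow towards the line of equal levels at the high end of the scale but spread widely at low unbagged levels. The smallest and largest differences, 5.20 and 67.4 points, both lie there, at 2.29% and 8.56% unbagged. On or above the dashed line lie 153 regions.

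Large differences were mostly found in regions with few cytosines. At least 30 points separated the groups in 153 regions (24.3%), at least 40 in 48 and at least 50 in 15, and the median number of cytosines in these sets was 8, 6 and 5. Regions of 4 to 6 cytosines had a median difference of 27.1 points (quartiles 21.5 and 35.5). Those of 7 to 9 had 21.7, those of 10 to 14 had 21.7, those of 15 to 29 had 21.05, and the 19 regions of 30 or more cytosines had 18.2 points (15.6 and 20.4). Across the 629 regions, the number of cytosines and the difference had a Spearman correlation of -0.21. All of these regions come from the same libraries, and a mean over few cytosines is less precise. The part of the authors' calling in this relation was not tested.

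**Figure D2:**
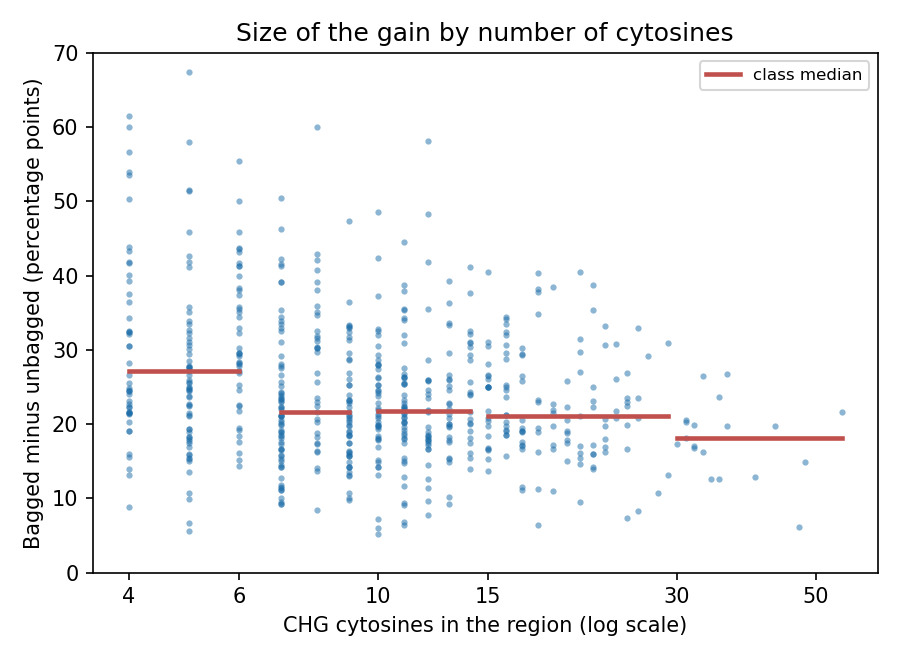
Bagged minus unbagged CHG methylation (percentage points, y axis) against the number of CHG cytosines in the region (x axis, log scale), 1 point per CHG-only gain, with red bars at the median of each cytosine class. Medians go from 27.1 points at 4 to 6 cytosines to 18.2 at 30 or more, and the highest point with at least 15 cytosines is at 40.5 points.

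Among CHG-only gains with at least 10 cytosines, the largest difference was on chromosome 15 from 35817907 to 35818042. In this region of 136 bp, 12 cytosines had 11.2% methylation in unbagged and 69.4% in bagged skin. The nearest CHH region lay 5920 bp away and was higher in bagged skin by 9.95 points, and the nearest CG region was 75511 bp away. The gain thus stood alone within 5 kb. On chromosome 4 from 7370422 to 7370583, 10 cytosines had 17.3% unbagged and 65.8% bagged, with a CHH gain of 13.7 points beginning 511 bp away. On chromosome 3, a gain of 48.3 points from 12857377 to 12857459 (12 cytosines) and one of 44.5 points from 20586036 to 20586125 (11 cytosines) had 17.1% and 18.8% unbagged. The latter had a CHH gain of 27.4 points at a distance of 317 bp.

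The next 6 differed by 40.4 to 42.4 points. They lay at positions 4900924 to 4901005 of chromosome 12 and 14462883 to 14462991 of chromosome 10. Further down the list were 1331941 to 1332020 of chromosome 4, 9370742 to 9370936 of chromosome 7, 12353262 to 12353541 of chromosome 9 and 17735247 to 17735441 of chromosome 2. Their unbagged levels ran from 18.2% on chromosome 7 to 42.3% on chromosome 2, and their bagged levels from 58.7% to 82.7%. The one on chromosome 4 had a CHH loss of -26.0 points as its nearest CHH region, at 951 bp, so that CHG and CHH methylation differed in opposite directions there. The CHH neighbours of the other 5 were gains. For the region on chromosome 9, another CHG gain of 32.4 points followed at 667 bp. For all 10 of these leading regions, the nearest CG region was more than 20 kb away. Only 23.4% of all CHG-only gains and 20.7% of CHG-only losses had a CG region within 20 kb, so such distances were common.

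The regions with the largest area statistic, a score of the authors' caller, had 29 to 55 cytosines and differences of 12.9 to 30.9 points. In the authors' deposited table the largest area statistic among CHG-only gains, 336.5, belonged to the longest region, on chromosome 12 from 10729461 to 10729924. Its 55 cytosines had 35.4% unbagged and 57.1% bagged. Next came chromosome 2 from 9229965 to 9230343, with 48 cytosines at 10.5% and 25.4%, and chromosome 3 from 1872461 to 1872742, with 29 cytosines at 13.4% and 44.4%. The 2 that followed were nearly unmethylated in unbagged skin. On chromosome 11 from 31129260 to 31129448, 33 cytosines had 1.41% unbagged and 17.7% bagged, a ratio of 12.5, and on the same chromosome from 3837262 to 3837548, 40 cytosines had 2.26% and 15.2%. The third longest region, on chromosome 12 from 8665655 to 8666011, held only 14 cytosines in 357 bp, at 31.4% unbagged and 64.0% bagged. Over the 629 regions the area statistic had a Spearman correlation of 0.96 with the number of cytosines, so that it ranks them mainly by size.

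At the low end of the scale, with at least 10 cytosines, chromosome 8 from 9683361 to 9683549 had 1.37% unbagged and 9.601% bagged over 26 cytosines, and chromosome 2 from 10164177 to 10164259 had 1.46% and 7.82% over 11. The region on chromosome 11 at 1.41% stood between them. At the high end were 2 regions of chromosome 6, from 9342967 to 9343022 with 82.8% unbagged and 7.23 points more bagged, and from 18765435 to 18765548 with 76.0% and 85.5%. Chromosome 10 from 13295131 to 13295212 followed with 74.5% and 86.1%. Near the limit of the rule, the smallest gains were 5.20 points on chromosome 9 from 22766061 to 22766115 (2.29% and 7.49%) and 5.63 points on chromosome 2 from 26607692 to 26607767 (6.19% and 11.8%). The smallest CHG loss on the chromosomes, outside the rule, was -6.09 points, on chromosome 7 from 26396633 to 26396685. As for overlap, the CHG-only gain closest to another context lay 2 bp from a CHH gain, on chromosome 3 from 18633600 to 18633657. The next lay 11 bp from one, on chromosome 8 from 24233765 to 24233826. The excluded gains with the smallest overlap shared 8 bp, on chromosome 14 from 20320822 to 20320935, and 11 bp, on chromosome 2 from 15286757 to 15286809.

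Set beside the most similar parts of the table, CHG-only gains had higher unbagged levels and were smaller in extent than CHG gains that overlapped another context. The 269 overlapping gains had a median of 21.2% in unbagged and 50.8% in bagged skin. Their median difference of 23.2 points (quartiles 18.7 and 29.6) was near the 22.4 points (17.9 and 29.6) of the CHG-only gains. They were longer, with a median of 105 against 92 bp, and held 12 against 10 cytosines. A longer region has more bases to share with another, so the rule itself bears on the difference in length. Of the overlapping gains, 23 (8.55%) were at 50% or more in unbagged skin, against 131 (20.8%) of the CHG-only gains. The 711 CHG-only losses were nearly the mirror image, with a median of 62.2% in unbagged and 32.0% in bagged skin and a difference of -24.4 points, a length of 88 bp and 9 cytosines. The 514 CG gains that overlapped no CHG or CHH region had medians of 27.6% unbagged and 55.03% bagged, a difference of 21.6 points, 88 bp and 11 cytosines. These sets were all called for their difference, and no test between them was made.

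The rule did not use the direction of neighbouring CG and CHH regions that share no base with a CHG-only gain. A neighbouring CHG region, however, can itself be a member and so have been chosen as a gain. Close neighbours in CG context were mostly gains, and so were close neighbours in CHG context, whereas neighbours in CHH context were gains about as often as all CHH regions. On the chromosomes as a whole, 38.4% of 1958 CG regions, 50.3% of 1787 CHG regions and 90.3% of 46661 CHH regions were higher in bagged skin. Of the 22 CHG-only gains with a CG region at less than 500 bp, 21 had a CG gain there (95.5%, 95% exact binomial interval 77.2 to 99.9). Some members shared a neighbour, so these cases involved 20 different CG regions. At 500 bp to 2 kb the nearest CG region was a gain in 13 of 18 cases (72.2%, 46.5 to 90.3), and at 2 to 10 kb in 20 of 54 (37.0%, 24.3 to 51.3), which is near the share of all CG regions. At 10 to 50 kb the share was 48.2% of 166 cases (40.4 to 56.1), which involved 151 different CG regions. That interval lies above the share of all CG regions, but it counts a repeated neighbour as separate cases.

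In CHG context the share of gains was lower in each farther class of distance. The nearest other CHG region was a gain in 30 of 34 cases under 500 bp (88.2%, 72.5 to 96.7), in 20 of 29 at 500 bp to 2 kb (69.0%), in 25 of 42 at 2 to 10 kb (59.5%) and in 48.0% of 152 at 10 to 50 kb. In 25 of the 34 closest cases the neighbour was itself a CHG-only gain, so pairs of members were counted from both sides. The rule had chosen these neighbours as gains, so it set a large part of the 88.2%. In the remaining cases the neighbour was a CHG gain that overlapped another context (5) or a loss (4). For CHH neighbours the shares were 89.7% of 78, 84.7% of 137, 91.9% of 310 and 87.5% of 104 in the same classes of distance. The overlapping CHG gains had similar neighbours: under 500 bp, 11 of 14 CG regions (78.6%) and 21 of 24 CHG regions (87.5%) were gains. Around CHG-only losses, close neighbours in CG and CHG context were mostly losses. None of 26 CG regions under 500 bp was a gain (0.00%, interval up to 13.2), and 4 of 39 CHG regions were (10.3%), while 94.9% of 137 CHH regions were gains. In both of these sets, too, a CHG neighbour can itself belong to the set and so have been chosen by its direction. How many did was not counted, so their CHG shares are no independent comparison.

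**Figure D3:**
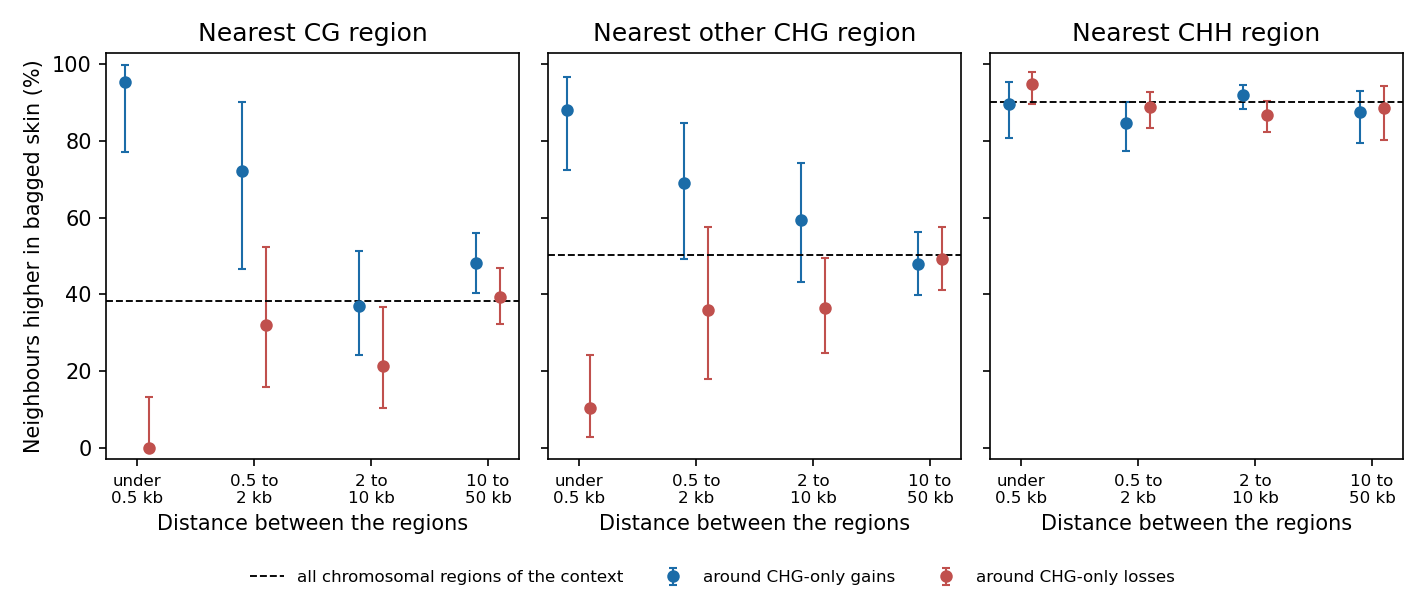
Share of nearest neighbouring regions that were higher in bagged skin (y axis, %) by the distance between the regions (x axis), around CHG-only gains (blue) and CHG-only losses (red), for neighbours in CG, CHG and CHH context; bars are 95% exact binomial intervals for counting error and dashed lines the share over all chromosomal regions of the context. Blue points start at 95.5% in CG and 88.2% in CHG context and are at 48.2% and 48.0% in the farthest class, where the CG interval lies above its dashed line; red points start at 0.00% and 10.3%, and in CHH context both sets stay between 84.7% and 94.9%.

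Counted over all distances up to 10 kb, 54 of 94 nearest CG regions (57.4%), 75 of 105 nearest other CHG regions (71.4%) and 471 of 525 nearest CHH regions (89.7%) were gains. Among CHG-only gains of at least 20 points these shares hardly differed, with 57.1% of 56 CG and 71.9% of 57 other CHG neighbours. Among those of at least 30 points, 42.1% of 19 CG (20.3 to 66.5) and 45.0% of 20 other CHG neighbours (23.1 to 68.5) within 10 kb were gains. These counts are small. The CG interval includes the 57.4% of all members, and the CHG interval ends below the 71.4%. Of the 22 CG neighbours under 500 bp, 9 lay within 100 bp of the CHG region, and a stretch called in 2 contexts can end at different bases in each. The part of region ends in these shares was not tested. Without the CHG-only gains that had a CG or CHH region within 100 bp, 53.7% of 82 CG and 71.3% of 101 other CHG neighbours were gains.

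The levels of close CG neighbours were near those of the CHG-only gain in some pairs and far from them in others. On chromosome 3 from 8134176 to 8134388, CHG methylation was 37.0% unbagged and 63.3% bagged, and 19 bp away 10 CG cytosines from 8134049 to 8134156 had 26.2% and 64.1%. On chromosome 12 from 2469454 to 2469553 the CHG levels were 48.0% and 71.7%, with 50.9% and 68.2% in a CG region at 44 bp. At low methylation, chromosome 7 from 29888035 to 29888131 had 3.64% and 12.8% in CHG context, and the CG region at 36 bp had 5.49% and 13.5%. By contrast, chromosome 6 from 21752113 to 21752208 had 20.9% and 54.7% in CHG context, against 6.87% and 26.8% in CG context at 22 bp. On chromosome 2 from 4900680 to 4900758 the CHG levels were 14.4% and 33.0%, and the CG region at 364 bp had 54.04% and 81.3%. Over the 22 CG neighbours under 500 bp the medians were 41.5% unbagged and 63.8% bagged, a difference of 21.9 points. Of these CG neighbours, counted per CHG-only gain, 6 overlapped a CHG region of their own. On chromosome 2, for example, the CHG-only gain from 25824110 to 25824214 (60.1% and 85.3%) lay 381 bp from a CG gain of 42 cytosines and 460 bp from a CHG gain of 32 cytosines, which were higher by 34.7 and 32.9 points.

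Most CHG-only gains nevertheless stood apart from other CG and CHG regions, as did the most similar sets. A CG or other CHG region lay under 500 bp in 46 cases (7.31%) and from there to 10 kb in 115 (18.3%). Another 394 (62.6%) had only CHH regions within 10 kb, and 74 (11.8%) had no region of any context. The median gap was 69388 bp to the nearest CG and 73767 bp to the nearest other CHG region. It was 72149 and 75654 bp for the overlapping CHG gains, and 72988 and 77865 bp for the CHG-only losses. Such distances were thus not particular to the CHG-only gains. The median size of the gain differed little between these settings, whereas the largest gains did differ. Median differences were 20.6 points with a CG or CHG region under 500 bp, 22.2 with one up to 10 kb, 22.6 with CHH regions only and 23.6 with none, and the unbagged medians were 35.3%, 28.4%, 30.8% and 30.5%. Quartiles of the difference overlapped in all 4 settings, from 16.8 to 24.5 points in the first and from 17.9 to 29.4 in the last. The largest difference was 38.4 points in the first setting, which held only 46 regions, and 50.4, 67.4 and 61.5 points in the others.

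Few CHG-only gains lay in runs. Within windows of 10 kb, 29 runs held 59 of the 629 regions and 570 stood singly. How many runs a density of 1.29 regions per Mb alone would give was not tested. Another CHG region of either direction lay within 10 kb of 16.7% of CHG-only gains and of 17.9% of CHG-only losses. The only run of 3 lay on chromosome 15 from 24744582 to 24745262, a span of 681 bp. Its regions had 62.7%, 54.2% and 60.9% unbagged and were higher by 10.1, 25.9 and 21.2 points in bagged skin. The nearest CHH region, 1337 bp away, was lower by 18.3 points (-18.3) and the nearest CG region, 7030 bp away, had -26.2 points. The shortest runs were pairs on chromosome 9. From 24055739 to 24055956 the pair, 54 bp apart, had 44.1% and 21.1% unbagged and 67.9% and 53.6% bagged. From 19704535 to 19704767 the pair had 18.1% and 26.3% unbagged and 36.9% and 48.1% bagged, with a CG gain of 21.9 points at 297 bp.

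CHH regions were the most frequent neighbours, and also by far the most frequent regions on the chromosomes (46661, against 1958 CG and 1787 CHG regions). They lay farther from CHG-only gains than from CHG-only losses. The median gap to the nearest CHH region was 3456 bp for CHG-only gains (quartiles 1328 and 7535) and 2394 bp for CHG-only losses. It was 2618 bp for the overlapping CHG gains, not counting regions they overlapped. A CHH region lay within 2 kb of 215 CHG-only gains (34.2%), of 116 overlapping CHG gains (43.1%) and of 325 CHG-only losses (45.7%). The rule bears on the contrast between CHG-only gains and losses. Of all CHG gains on the chromosomes 17.5%, and of the CHG losses 6.75%, overlapped a CHH region and were left out for it. When overlapping regions were counted as well, 46.4% of the 898 gains (43.1 to 49.8) and 50.8% of the 889 losses (47.5 to 54.2) had a CHH region on them or within 2 kb. Median CHH levels in the regions under 500 bp from CHG-only gains were 7.90% without and 17.8% with bags, and near CHG-only losses 15.2% and 30.003%. Over all chromosomal CHH regions they were 12.8% and 23.1%.

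Among CHG-only gains, the share with a CHH region close by was higher in each class of CHG level up to 80%, though the intervals overlapped. Taking the mean of both groups as the level, a CHH region lay within 2 kb of 26.7% of the 86 CHG-only gains under 20% (17.8 to 37.4), of 29.8% of 178 from 20 to 40%, of 36.4% of 217 from 40 to 60% and of 42.0% of 131 from 60 to 80% (33.4 to 50.9). For the 17 regions at 80% or more it was 29.4%, with an interval of 10.3 to 56.0. The losses differed most from the gains between 20 and 40%, with 50.5% of 196 (43.3 to 57.7), and least from 60 to 80%, with 40.6% of 197 (33.7 to 47.8). They showed no such order, with 40.3% of 72 under 20% and 49.6% of 226 from 40 to 60%. The rule left out gains on a CG or CHH region, which had lower unbagged levels (median 21.2% against 30.7%). Its part in these shares was not tested.

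**Figure D4:**
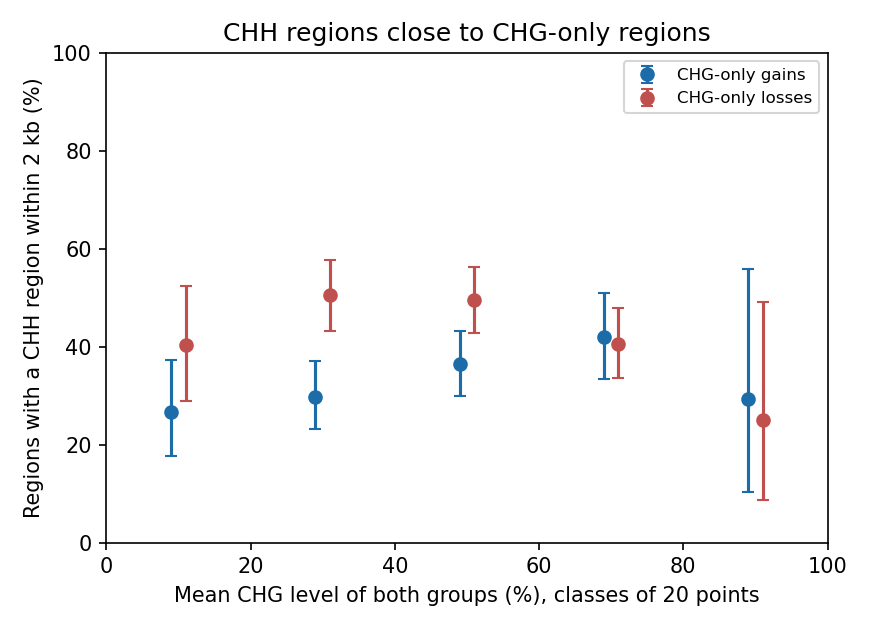
Share of CHG-only gains (blue) and CHG-only losses (red) with a CHH region within 2 kb (y axis, %) in classes of 20 points of the mean CHG level of both groups (x axis, %); bars are 95% exact binomial intervals for counting error. Blue points go from 26.7% to 42.0% over the first 4 classes, and the last class has 17 gains and 20 losses.

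CHG-only gains were found on all 17 chromosomes. Per Mb of chromosome, measured to the last region in the table, there were 1.29 on the whole, from 0.77 on chromosome 16 (23 regions) and 0.82 on chromosome 1 (17 regions) to 1.66 on chromosome 12 (41 regions) and 1.71 on chromosome 9 (43 regions). Chromosome 11 had the most, 53. Gains made up 46.9% of all CHG-only regions, and the share ran from 37.0% on chromosome 1 to 57.6% on chromosome 11. It was above 50% on 3 chromosomes (6, 11 and 12), below on 13 and exactly 50% on chromosome 8. The exact binomial interval of each of the 17 shares included 50%. Chromosome medians of the difference lay between 19.7 points on chromosome 6 and 25.04 on chromosome 16, inside the quartiles of the whole set. Along chromosomes cut into 5 equal parts, CHG-only gains were spread as 17.8%, 18.4%, 24.0%, 19.7% and 20.0%, and CHH regions as 18.1%, 20.2%, 22.3%, 20.9% and 18.5%.

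**Figure D5:**
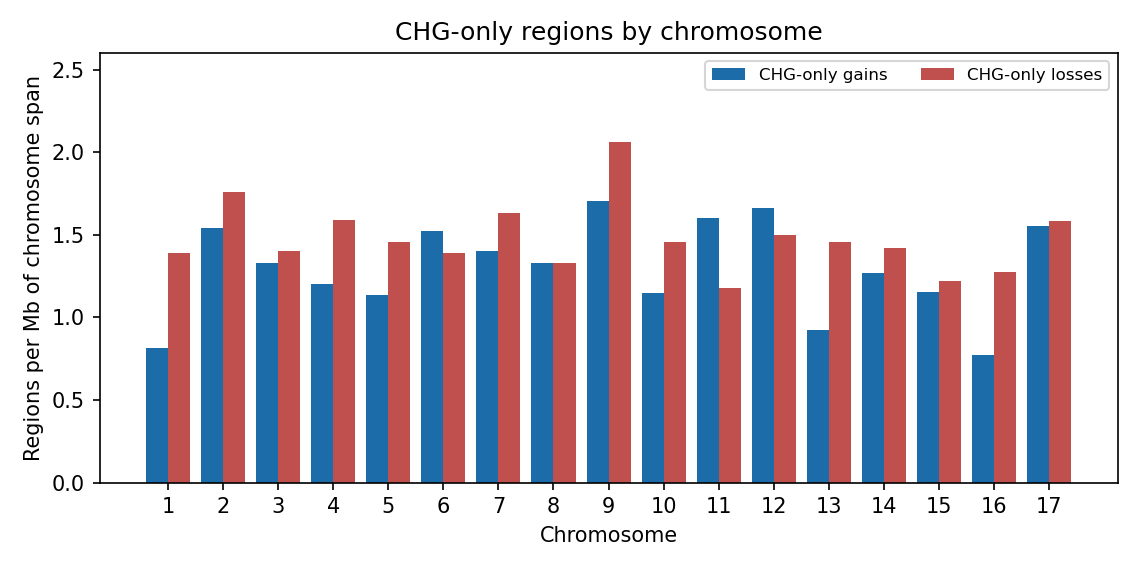
CHG-only gains (blue) and CHG-only losses (red) per Mb of chromosome span (y axis) on each of the 17 chromosomes (x axis). Gains range from 0.77 per Mb on chromosome 16 to 1.71 on chromosome 9, and losses are more frequent than gains on 13 chromosomes.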

How the data were processed

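The series holds bisulfite libraries of 3 bagged and 3 unbagged skin samples, made with a kit for bisulfite-treated DNA (Accel-NGS Methyl-Seq), as the labels' protocols say. The submitters' processing notes name FastQC and Bismark 0.16.3, an aligner and methylation caller. Not given in the sources used here: the region caller, its thresholds and the genome build. The authors deposited 1 table, in which methylation levels are fractions averaged per group and region; they are printed as percentages. Its area statistic is a score that the authors' deposited table does not explain. The deposited differences equal bagged minus unbagged means in all regions (tolerance 1e-09 points), and lengths equal end minus start plus 1, so ends were taken as included.

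Overlap meant at least 1 bp. A neighbour was the nearest region sharing no bp, and the gap the bases between. Shares have 95% Clopper-Pearson intervals. No p-value was computed, since the deposited means leave no samples to test. Regions were named by rank: the 10 largest differences and 3 lowest and 3 highest unbagged levels with at least 10 cytosines, the 5 largest area statistics, the 3 longest, 3 runs (most members first, then shortest span) and those nearest the limits of the rule. Examples of close pairs, the classes of distance and of mean level, and the 6 regions under 10% unbagged and at least 50% bagged were chosen after their values were seen. Members and comparisons were chosen with earlier results of these data known. Interval functions were tested on 300 simulated regions, and all were recovered. Python 3.11.15, pandas 2.3.3 and scipy 1.17.1 were used.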

Additional observations from a re-analysis of the deposited data

How the results depend on the processing

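Among 182 values recomputed under alternatives, 169 did not pass the limit used for their kind: a factor of 1.5 for a number, the exact binomial interval for a share and the quartiles for a median. Most of the values came from leaving out each chromosome in turn, which removes few regions. All 13 that passed their limit came from the other alternatives. The quartiles are also a wide limit for the median of a subset, so the count of 169 says little about how firm the results are. The number of CHG-only gains was 394 at 20 points or more, 153 at 30 points, 325 with at least 10 cytosines and 302 among CHG regions with an area statistic above the median, as stricter limits leave fewer regions. The CHG-only share of CHG gains was 66.7% with at least 10 cytosines, 64.5% with the larger area statistic and 75.1% when an overlap had to cover 50% of the region. At 30 points or more the median difference was 35.4 points by construction. Gains then made up 42.1% of nearest CG (19, interval 20.3 to 66.5) and 45.0% of nearest other CHG regions (20, interval 23.1 to 68.5). The cause of these lower shares was not tested. Within 2 kb, 86.5% of CHH and 85.0% of CG neighbours were gains, and within 50 kb 57.6% of other CHG neighbours. Without each chromosome in turn these 3 shares at 10 kb ran from 89.1 to 90.6% (CHH), 54.2 to 63.1% (CG) and 68.8 to 74.7% (CHG). No paired analysis was possible because the deposited means combine the replicates, and for the same reason no replicate could be left out. Depth is unknown and limits the precision of every level, most where regions have few cytosines.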

Other observations

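One stretch of chromosome 11 held differences of alternating direction. From 19914170 to 19914317, CHG methylation over 10 cytosines was 44.4% in unbagged and 74.9% in bagged skin. After 494 bp, a CHG region of 44 cytosines from 19914812 to 19915151 had 59.7% and 29.6%. After another 243 bp, a CHG-only gain of 9 cytosines from 19915395 to 19915448 had 21.4% and 46.6%, and at 346 bp from it 11 CG cytosines from 19915795 to 19915903 had 87.1% and 50.1%. This is the 1 CG loss among the 22 cases with a nearest CG region under 500 bp. The CHG region of 44 cytosines is the neighbour in 2 of the 4 opposite CHG cases.

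The other 2 opposite CHG cases were on chromosomes 4 and 5. On chromosome 4, the CHG-only gain from 22239212 to 22239354 had 44.5% unbagged and 78.4% bagged over 5 cytosines, and the CHG loss 269 bp away had 28.0% and 6.33% over 11. On chromosome 5, the gain from 22946471 to 22946540 had 18.2% and 35.3% over 17 cytosines, and the loss 203 bp away had 16.6% and 6.04% over 14. All 3 places were picked after their values were seen, and with 1 mean per group no error can be set beside them.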
